A study of Mus musculus with 7 samples.

Results

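The regions described here are the contacts of the *Gata3* promoter in cultured Th2 cells, with and without the distal enhancer region mG900. They come from 4C-seq, in which crosslinked chromatin is cut and religated, and the DNA joined to a single bait is amplified and sequenced, so that the genomic partners of that bait can be listed. The bait was *Gata3*-TSS, the transcription start site of *Gata3* (chr2:9878600, minus strand, mm10). A pair of lists of significant interacting regions was compared, 129 regions from WT Th2 cells and 169 from mG900KO Th2 cells, which is 298 of the 1153 regions called in all 7 libraries of the series. Each region was classed by overlap of 1 base or more with the other list. A region of both lists is called shared, a region of the WT Th2 list alone (lost after the deletion) WT-only, and a region of the mG900KO Th2 list alone (gained after the deletion) KO-only.

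Both libraries were made from naive CD4+ T cells of mouse lymph nodes and spleen, which were activated for 3 days through CD3ε (antibody bound to the plate) and CD28 (antibody in solution), with IL-4 added and IFN-γ blocked by antibody. The WT cells are on the C57BL/6 background, and the mG900KO cells carry a germline CRISPR-Cas9 deletion of chr2:8936092-8980864, made in zygotes. The interval is 44773 bases long, holds 214 NlaIII sites and lies 898 to 943 kb downstream from *Gata3*-TSS, at lower coordinates on chromosome 2. The study's methods describe 2 lines of mG900KO mice and say that every experiment used both, with no significant difference seen. Which line gave this library, and from how many animals of what age, is not given in the sources used here. No expression was measured in these libraries, so the Th2 label could not be checked against marker genes. There was 1 library per genotype, the lists hold no read counts or scores, and the depth is unknown. No test between the genotypes was therefore possible, and each difference below is a difference between 2 lists.

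GATA3 is the master transcription factor of Th2 cells, the helper T cells that make IL-4, IL-5 and IL-13, and it is also needed earlier in T cell development. Enhancers are stretches of DNA that bind transcription factors and act on promoters that can lie far away on the same chromosome, which brings the pieces of DNA close together in the nucleus. A 4C bait sees this proximity over a falling background, in which neighbouring DNA is met often and distant or separate chromosomes rarely.

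The regions begin and end at sites of NlaIII, the enzyme that made the 4C fragments and cuts at CATG. In the reference sequence, 2221 of the 2306 edges of the 7 lists (96.3%) fell exactly on such a site. The ends of the deleted interval are shown first, plus strand of GRCm38, with the bases inside the stated coordinates in capitals. The exact junction in the mG900KO lines can differ from these coordinates by a few bases.

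left end, chr2:8936067-8936116: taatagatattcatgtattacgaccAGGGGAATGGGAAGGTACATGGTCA

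right end, chr2:8980840-8980889: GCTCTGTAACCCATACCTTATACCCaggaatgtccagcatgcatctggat

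The WT Th2 list had a region across most of this interval (chr2:8935471-8970937, 35.5 kb), whose end inside the deleted DNA is the NlaIII site in capitals below. The following stretch of 150 bases is the part of the interval under that region with the most matches to motifs of T helper cell factors. The motifs searched on both strands were GATAAG, known for binding GATA3 and its relatives, TGANTCA, known for AP-1 and BATF, and TTCNNNGAA, known for STAT factors. The last 2 of these read alike on both strands, and matches are in capitals. It held 2 matches of TGANTCA, 1 of TTCNNNGAA and 0 of GATAAG. Of all windows of 150 bases on chromosome 2, 4.46% held TGANTCA, 5.39% TTCNNNGAA and 5.39% GATAAG. The stretch was picked for its matches, so these shares are no yardstick for it. Over the whole deleted interval, GATAAG occurred 5.58 times per 10 kb, TGANTCA 3.57 and TTCNNNGAA 5.14 times. Over chromosome 2 the values were 3.85, 3.18 and 3.92. A match is only a run of letters and says nothing of binding.

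WT Th2 region end, chr2:8970914-8970957: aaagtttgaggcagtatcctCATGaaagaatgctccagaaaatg

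motif stretch, chr2:8942563-8942712: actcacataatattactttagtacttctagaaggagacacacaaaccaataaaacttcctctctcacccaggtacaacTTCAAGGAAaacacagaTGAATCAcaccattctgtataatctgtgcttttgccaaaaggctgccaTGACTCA

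Far from *Gata3*, several shared regions began or ended at the very same NlaIII site in both libraries. These sites are given because they are the most exact agreement between the lists, in *Fam107b*, *Prpf18*, *Prkcq*, *Mindy3*, *Nebl* and at both ends of a region by *Chmp4b*, with the cutting site in capitals.

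Fam107b end, chr2:3714525-3714568: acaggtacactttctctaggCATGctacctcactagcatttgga

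Prpf18 start, chr2:4644425-4644468: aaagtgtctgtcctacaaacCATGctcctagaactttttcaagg

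Prkcq start, chr2:11259888-11259931: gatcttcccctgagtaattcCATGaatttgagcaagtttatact

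Mindy3 start, chr2:12404841-12404884: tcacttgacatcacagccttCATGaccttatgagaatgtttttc

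Nebl start, chr2:17360796-17360839: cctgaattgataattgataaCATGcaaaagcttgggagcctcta

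Chmp4b start, chr2:154681262-154681305: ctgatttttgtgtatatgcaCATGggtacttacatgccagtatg

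Chmp4b end, chr2:154692278-154692321: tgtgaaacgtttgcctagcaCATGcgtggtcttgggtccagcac

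On chromosome 2, the WT Th2 list had 63 regions and the mG900KO Th2 list 73. Within the 2-Mb window around *Gata3* (chr2:8500000-10500000), both lists had 19, of which 4 (21.1%) were WT-only and 4 (21.1%) KO-only. The WT-only count includes the region over the deleted interval. Almost all of that DNA is missing from the mG900KO genome, so the class of this region was fixed by the design. Outside the window, 24 of 44 WT Th2 regions (54.5%) were WT-only and 33 of 54 mG900KO Th2 regions (61.1%) were KO-only. On the other chromosomes, 52 of 66 (78.8%) were WT-only and 82 of 96 (85.4%) KO-only. The called regions covered 0.605% of the assembled bases of chromosome 2 in WT Th2 cells and 0.683% in mG900KO Th2 cells, and 0.353% and 0.516% of the other chromosomes.

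Outside the window, the shared and unshared regions differed in distance. Under 10 Mb from *Gata3*-TSS, 3 of 17 WT Th2 regions (17.6%) were WT-only and 9 of 24 mG900KO Th2 regions (37.5%) were KO-only. At 10 Mb or more, the counts were 21 of 27 (77.8%) and 24 of 30 (80%). Neither share rose evenly with distance. The KO-only share was 66.7% (8 of 12) between 2 and 5 Mb, 16.7% (1 of 6) between 5 and 10 Mb and 66.7% (4 of 6) beyond 100 Mb. The WT-only share was 33.3% (2 of 6) between 2 and 5 Mb and 0% (0 of 5) between 5 and 10 Mb. It was 100% (8 of 8) between 10 and 20 Mb and fell from there, to 83.3% (10 of 12) up to 50 Mb, 60% (3 of 5) up to 100 Mb and 0% (0 of 2) beyond. The regions under 10 Mb were also larger, with a median of 74 NlaIII fragments against 63 in WT Th2 cells and 64 against 59.5 in mG900KO Th2 cells. Among regions of up to 75 fragments, 3 of 10 (30%) were WT-only under 10 Mb and 21 of 27 (77.8%) beyond it, and 9 of 17 (52.9%) and 24 of 29 (82.8%) were KO-only. Among these smaller regions the nearer ones were still slightly larger, with a median of 66.5 against 63 fragments in WT Th2 cells and 62 against 58 in mG900KO Th2 cells, and the part of size in the difference with distance was not tested. All 7 WT Th2 regions and all 7 mG900KO Th2 regions of over 75 fragments under 10 Mb were shared.

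A pair of libraries that shares no sample with this comparison, WT naive and WT Th0 cells with the same bait, was compared in the same way. In the window, 4 of 21 naive regions (19%) overlapped no Th0 region and 2 of 18 Th0 regions (11.1%) no naive region. Outside it, the shares were 43.5% and 40.9% under 10 Mb, 76.4% and 57.1% at 10 Mb or more, and 81.5% and 67.3% on the other chromosomes. This pair has 1 genotype but differs in cell state. Its shares lay above the WT-only and KO-only shares under 10 Mb and, at 10 Mb or more, below both. With no replicate library of either genotype, differences of genotype and differences between libraries cannot be told apart.

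**Figure D1:**
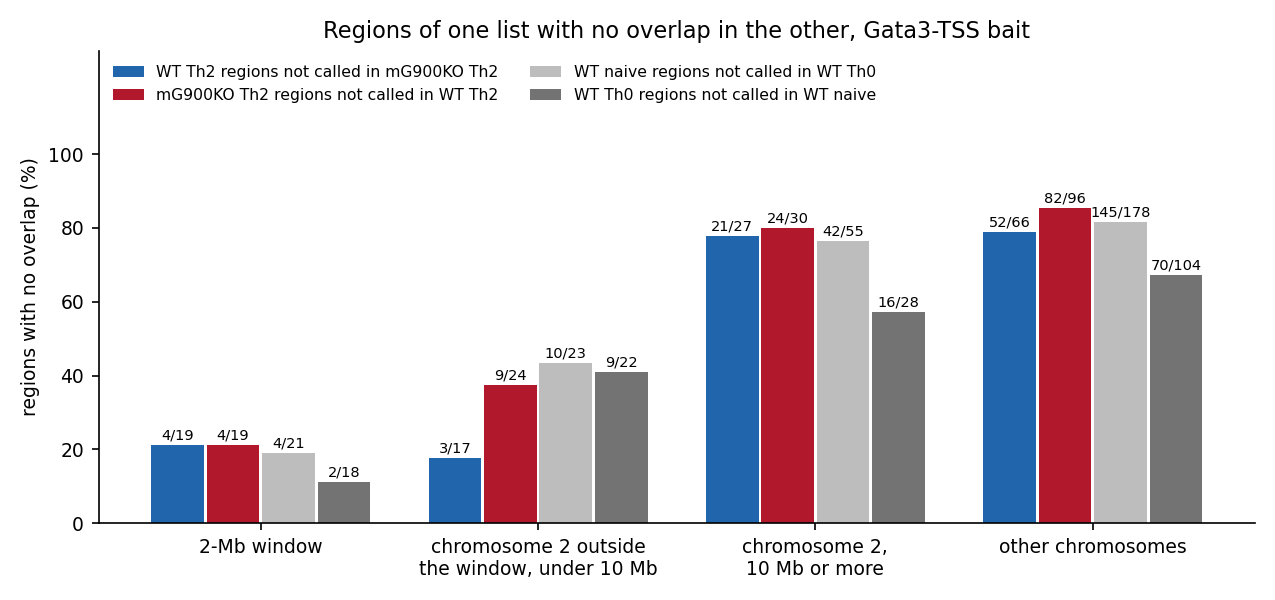
Percent of the regions of one list that overlap no region of the other, by position relative to *Gata3*-TSS, with the counts above the bars. WT Th2 against mG900KO Th2 is in blue and red, and WT naive against WT Th0, the pair with no sample in common, in grey. All 4 shares are 21.1% or less in the 2-Mb window and 57.1% or more at 10 Mb and beyond and on other chromosomes, and the WT-only share is low also under 10 Mb (17.6%).

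Beyond the deletion, on the side away from *Gata3*, the DNA lies 44.8 kb nearer to the promoter in the mG900KO genome. Outside the window, this stretch held 5 WT Th2 regions with 85.5 kb and 10 mG900KO Th2 regions with 151 kb. The WT naive list had 7 regions in this stretch and the WT Th0 list 9. The mG900KO Th2 count was the highest of the 4 libraries with this bait and WT Th2 the lowest, but the lists differ in size. Outside the window on chromosome 2, the mG900KO Th2 list had 54 regions in all and the WT Th2 list 44. There were 50 on the WT Th0 list and 78 on the WT naive list. Relative to these totals, WT naive cells had the fewest regions beyond the deletion, and mG900KO Th2 cells were like WT Th0 cells. Inside the window, this side went the other way, with 5 WT Th2 regions (112 kb) and 4 mG900KO Th2 regions (95.9 kb).

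The shared regions of this side lay in *Celf2*, *Prpf18* and *Fam107b*. *Celf2*, which encodes an RNA-binding regulator of splicing, was nearest, with a WT Th2 region at 3.153 Mb (chr2:6696613-6725626, 29 kb) and a mG900KO Th2 region over it (chr2:6687069-6717951, 30.9 kb). A second mG900KO Th2 region (chr2:6724956-6736976, 12 kb) overlapped the end nearer to *Gata3*. *Prpf18*, a splicing factor gene, had a region over its start, of 13.5 kb in WT Th2 cells and 9.91 kb in mG900KO Th2 cells, that began at the same NlaIII site. The region in *Fam107b*, at 6.16 Mb, was 15.8 kb and 11.7 kb long with a common end.

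Both WT-only regions of this side lay in *Camk1d*, a calcium/calmodulin-dependent kinase gene. One was inside the gene (chr2:5607673-5616961, 9.29 kb) and the other covered its start (chr2:5705296-5723161, 17.9 kb). The first was called in no other library, while WT naive and Th0 cells both had the second. *Camk1d* had 4.4% of its length inside WT Th2 regions, 2.81% (WT naive), 1.39% (WT Th0) and 0% in mG900KO Th2 cells. The nearest mG900KO Th2 region was 111 kb from the region over the *Camk1d* start.

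The 6 KO-only regions beyond the deletion lay between 3.49 and 4.99 Mb from *Gata3*-TSS. A pair was in *Usp6nl* (chr2:6346227-6359633 and chr2:6377126-6386962), which encodes a GTPase-activating protein for Rab proteins of endosomes. The others were at the start of *Echdc3* (chr2:6208003-6222294), at the shared start of *Cdc123*, a factor for translation initiation, and *Nudt5*, a hydrolase of ADP-ribose (chr2:5833761-5850622), in *Phyh*, an enzyme of phytanic acid breakdown (chr2:4932309-4951153), and at the start of *Sephs1*, a selenophosphate synthetase gene (chr2:4875258-4888344). The *Cdc123* and *Nudt5* region and the *Usp6nl* region farther from *Gata3* were on the WT Th0 list too, and the other 4 on no other list. The closest WT Th2 region was 111 kb away from the *Cdc123* region and 217 to 474 kb from the rest.

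**Figure D2:**
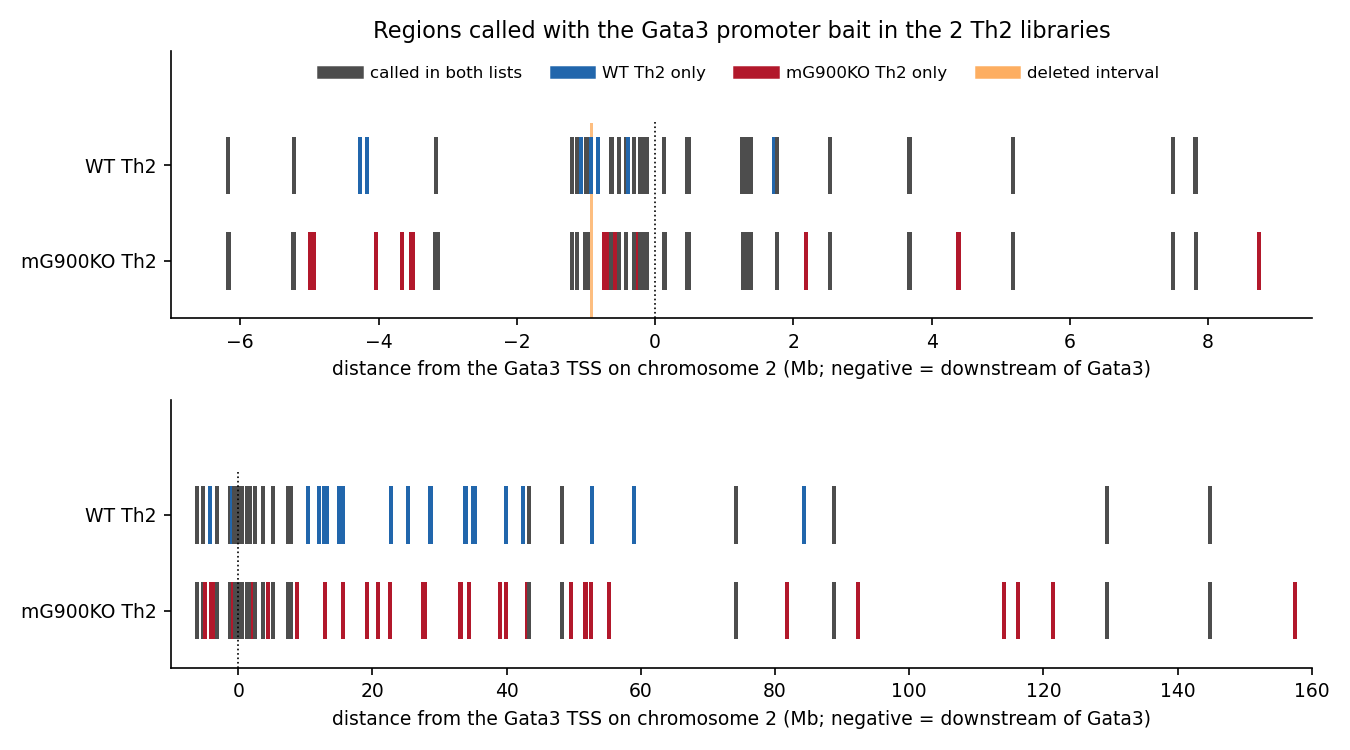
Regions of chromosome 2 by distance from *Gata3*-TSS in Mb (dotted line), within 7 Mb downstream and 9.5 Mb upstream (top) and over the whole chromosome (bottom), with 1 row per library. Each bar is a region (short regions are widened to stay visible, so bar widths are not to scale), dark grey where shared, blue where WT-only and red where KO-only, and the deleted interval is in orange. Grey bars prevail near the promoter and blue and red bars from 10 Mb onward.

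Upstream from *Gata3*, outside the window and under 10 Mb, 12 regions were called in WT Th2 cells and 14 in mG900KO Th2 cells. Of these, 1 was WT-only (8.33%) and 3 were KO-only (21.4%). The first contacts outside the window, from 1.259 Mb, clustered at *Prkcq*, which encodes protein kinase C theta, a kinase of T cell receptor signalling. WT Th2 cells had 4 regions there and mG900KO Th2 cells 5, all shared, and in each list the first of them lay just before the gene. The others covered 37% of the gene in WT Th2 cells and 54.9% in mG900KO Th2 cells, beside 40.4% (WT naive) and 28.6% (WT Th0). The region over the *Prkcq* start was chr2:11164516-11191927 in WT Th2 cells and chr2:11164251-11186394 in mG900KO Th2 cells, and the mG900KO Th2 list had 2 further calls (26.4 and 13.5 kb) that overlapped the opposite ends of the WT Th2 call at chr2:11205811-11219730.

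*Il2ra*, the gene for the alpha chain of the interleukin-2 receptor, was called in both. The region was 32.8 kb in WT Th2 cells (chr2:11624835-11657586) and 18.8 kb in mG900KO Th2 cells (chr2:11633509-11652283), which lay wholly inside the WT call. It took in 29.3% and 18.8% of *Il2ra*, beside 41.4% (WT naive) and 18.4% (WT Th0), so that the WT Th0 and mG900KO Th2 values were alike. The 1 WT-only region of this stretch was next to it, over the start of the splicing factor gene *Rbm17* (chr2:11597578-11616314, 18.7 kb). It lay 17.2 kb from the mG900KO Th2 region of *Il2ra*, and WT naive cells had it too.

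Farther upstream, shared regions lay at the start of *Mindy3*, a deubiquitinase gene, at *Trdmt1* and *Vim*, at *Arl5b* and *Nsun6* and at 2 places in *Nebl*. *Vim* encodes vimentin, an intermediate filament protein of lymphocytes and other cells. WT Th2 cells had separate regions of 9.2 kb (chr2:13549382-13558576) and 15.6 kb (chr2:13564681-13580260), and mG900KO Th2 cells had 1 region of 36.9 kb across both (chr2:13540611-13577473), the longest mG900KO Th2 region outside the window on this chromosome. *Vim* itself was inside regions over 71.2% of its length in WT Th2 cells and 39.9% in mG900KO Th2 cells, and over 0% in the other 5 libraries.

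The 3 KO-only regions of this stretch contained no start of a protein-coding gene. They were an interval 44005 bases from *Itga8* (chr2:12051972-12062626), a part of *Mrc1*, the mannose receptor gene of macrophages (chr2:14262934-14276092), and an interval 54054 bases from *Commd3* (chr2:18603516-18618329). WT naive and Th0 cells both had the last, and no other library had the other 2.

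From 10 Mb onward, 6 of the 27 WT Th2 regions and 6 of the 30 mG900KO Th2 regions were shared. All lay upstream from *Gata3*, since the downstream arm of the chromosome ends before that distance. The shared loci described here were in *Cytip*, a gene of lymphocytes and dendritic cells that acts on cell adhesion (chr2:58128231-58138915), in an interval without a protein-coding gene at 74.1 Mb, at *Gm10801* and *Gm10800* (88.8 Mb, a locus called in all 7 libraries), in an interval 126042 bases from *Sptlc3* (129 Mb) and in *Chmp4b*, a gene of the ESCRT membrane machinery (145 Mb). In WT Th2 cells, 58.3% of the bases of the *Gm10801* region are marked as repeats in the reference, beside 32.1% over chromosome 2. The part of repeats in this call was not tested. The *Chmp4b* region had identical edges in the 2 lists (chr2:154681282-154692301, 11.0 kb). It and the region at 129 Mb (chr2:139358198-139367870) were called in no other library.

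The 21 WT-only regions beyond 10 Mb were spread from 10.4 to 84.4 Mb and the 24 KO-only regions from 12.9 to 157 Mb. The nearest WT-only regions were in *Etl4* (10.4 Mb), an interval 119173 bases from *Gpr158* (12.1 Mb), *Gad2* (12.8 Mb), the start of *Abi1*, an actin regulator gene (13.2 Mb), and *Ehmt1*, a histone methyltransferase gene (15.0 Mb). Between 10 and 20 Mb the WT Th2 list had 8 regions and the mG900KO Th2 list 3, and none was shared. The longest WT-only regions beyond 10 Mb, other than *Ehmt1*, were over *Paxx*, *Clic3* and *Ptgds* (16.2 kb) and in *Kynu*, an enzyme of tryptophan breakdown (14.9 kb). The longest KO-only region lay over *Rc3h2*, *Zbtb6* and *Zbtb26* (chr2:37421266-37443216, 22 kb) and was on the WT naive and Th0 lists and on the WT Th2 list of the mG900 bait. It was followed by intervals nearest to *Lrp1b* (chr2:42953975-42972045, 18.1 kb) and *Dapl1* (chr2:59434262-59451928, 17.7 kb), which no other library had. Beyond 100 Mb the WT Th2 list had 2, both shared, and the mG900KO Th2 list 6, of which 4 were KO-only.

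Only 3 of the 21 WT-only regions lay within 100 kb of a mG900KO Th2 region, and the median distance was 557 kb. The closest pair was 26.9 kb apart, between a WT-only region over *Paxx*, *Clic3* and *Ptgds* (chr2:25454165-25470324) and a KO-only region over *C8g* and *Fbxw5* (chr2:25497251-25506891). *Lypd6b* and *Arhgap15* each had a WT-only and a KO-only region, 50.1 and 489 kb apart.

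A run of KO-only regions between 51.7 and 55.3 Mb is described after its values were seen. It held regions in *Tank*, a gene of innate immune signalling (chr2:61617901-61633761), at the start of *Psmd14*, a proteasome subunit gene (chr2:61705115-61717701), in *Dpp4*, the gene of the T cell surface protease CD26 (chr2:62384576-62397207), and in *Cobll1* (chr2:65183716-65195026). WT naive cells had all 4 and WT Th0 cells 3 of them, all but *Tank*. The WT Th2 list had no region in this run other than 1 in *Ifih1*, an RNA sensor gene (chr2:62618087-62631939), which no other library had.

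In the 2-Mb window, the WT-only regions were the region over the deleted interval and 3 of 12.4 to 14.7 kb at 0.384, 0.815 and 1.069 Mb downstream from *Gata3*-TSS. The KO-only regions, of 9.73 to 15.4 kb, all lay between *Gata3* and the deletion, at 0.244, 0.571, 0.685 and 0.727 Mb. Each of the 8 lay within 73 kb of a region in the other list. The deleted interval had 77.8% of its bases in the WT Th2 region and 0% in the mG900KO Th2 list. It also had 0% in the WT naive and Th0 lists, so its absence from a list does not by itself mark the deletion. Neither Th2 list had a region closer than 82.3 kb to *Gata3*, which holds the bait.

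The extent of shared regions was compared where 1 region of each list matched 1 of the other. Outside the window, 7 of 15 such pairs were longer in mG900KO Th2 cells, 7 shorter and 1 equal, with a median length ratio of 1 (range 0.573 to 1.35) and a median of 79.1% of the joint extent in common. In the window, 8 of 15 were longer and 7 shorter, with a median ratio of 1.03. The shortest relative to WT Th2 was the window region nearest to *Gata3* downstream, 35.9 kb in WT Th2 cells (chr2:9738840-9774776) and 15.1 kb in mG900KO Th2 cells (chr2:9747073-9762158). Beyond the deletion, 3 of 4 pairs in the window and 2 of 2 outside it were shorter in mG900KO Th2 cells. The shared *Celf2* locus of that side was not matched 1 to 1 and is not in this count. It went the other way, with mG900KO Th2 regions of 30.9 and 12 kb over a WT Th2 region of 29 kb. On other chromosomes 7 of 14 pairs were longer, 6 shorter and 1 equal.

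**Figure D3:**
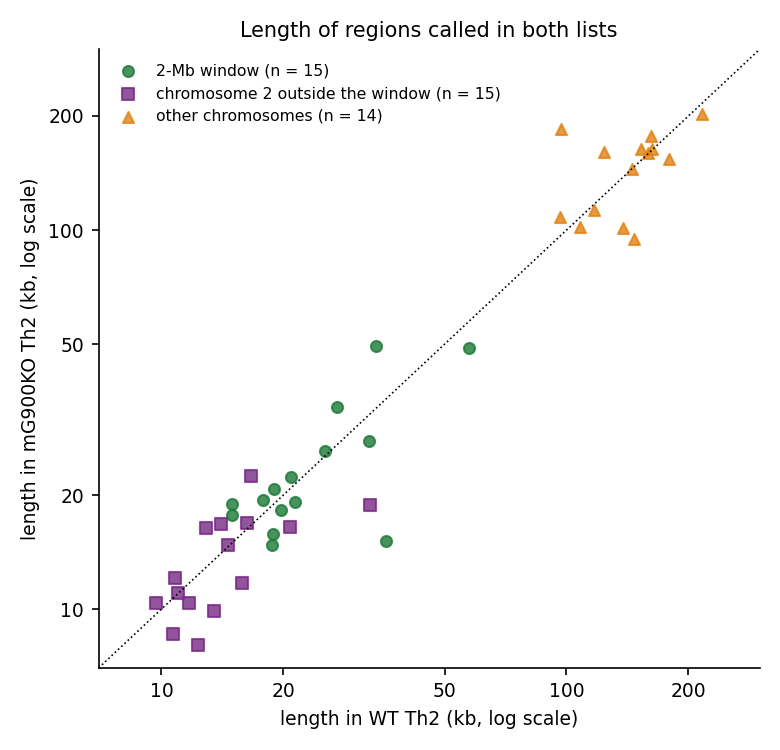
Length of each region matched 1 to 1 between the lists, in kb on log axes, in WT Th2 (horizontal) and mG900KO Th2 cells (vertical), with the dotted line at equal length. Points lie on both sides of the line in all 3 groups of regions.

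Shared regions were also the ones found in the other libraries of the series. Outside the window on chromosome 2, 52.3% of all WT Th2 regions and 59.3% of all mG900KO Th2 regions were called in at least 1 of the other 5 libraries. Of the shared WT Th2 regions 17 of 20 (85%) were, of the WT-only regions 6 of 24 (25%), and of the KO-only regions 13 of 33 (39.4%). WT Th0 cells with the same bait had 3 of the 24 WT-only regions (12.5%) and 12 of the 33 KO-only regions (36.4%), and WT naive cells had 4 (16.7%) and 7 (21.2%). Over all regions of the list, shared ones included, WT Th0 cells had 38.6% of the WT Th2 and 48.1% of the mG900KO Th2 regions, and WT naive cells 40.9% and 42.6%, so both classes lay below the share of their own list. No test applies to these counts, since the regions of a list come from 1 library.

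The series also has WT Th2 cells with a bait at mG900 itself, and 18.2% of all WT Th2 promoter contacts outside the window on chromosome 2 were on that list. It held 7 of the 20 shared regions (35%), 1 of the 24 WT-only regions and 1 of the 33 KO-only regions. They included regions at *Celf2*, at 2 places in *Prkcq*, beside *Trdmt1*, at *Arl5b* and *Nsun6* and at *Gm10801*. The 7 shared regions were thus called from both baits in WT Th2 cells and from the promoter also in mG900KO Th2 cells. The promoter and mG900 lists of WT Th2 cells have no library in common.

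**Figure D4:**
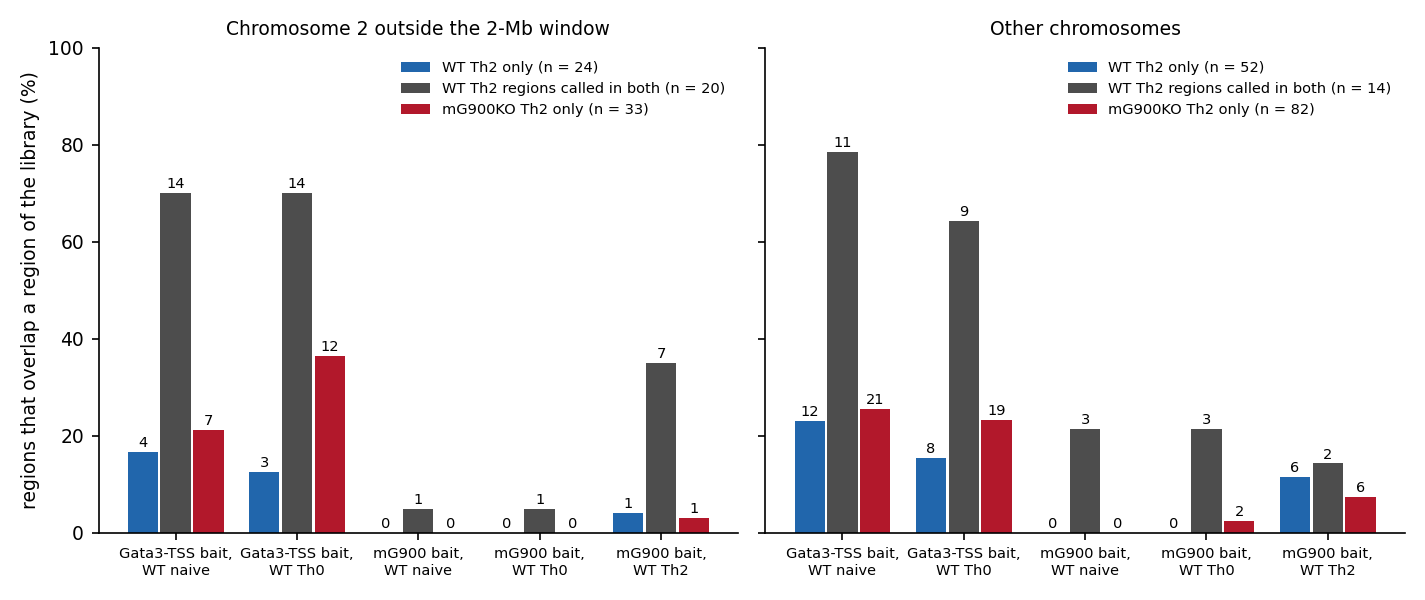
Percent of the regions of each class that overlap a region of each of the 5 other libraries, outside the 2-Mb window on chromosome 2 (left) and on other chromosomes (right), with the number of regions above each bar. Shared regions (grey) have the highest bars for every library. On chromosome 2, WT-only (blue) and KO-only (red) regions are rarely called with the mG900 bait. On other chromosomes, the WT Th2 list of that bait held 11.5% of WT-only and 7.32% of KO-only regions. That is near the 12.1% of all WT Th2 and 8.33% of all mG900KO Th2 regions there.

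The make-up of the classes outside the window overlapped. The median length was 13.9 kb in shared WT Th2 regions, 13.1 kb in WT-only and 13.4 kb in KO-only regions, and the median GC content was 41.4%, 41.8% and 42.8%, beside 42.1% over chromosome 2. Starts of protein-coding genes were denser than over the chromosome in all classes, at 34.5, 42.4 and 33 per Mb in shared, WT-only and KO-only regions, beside 10.3. They lay in a minority of the regions, 8 of 20 shared, 9 of 24 WT-only and 10 of 33 KO-only, and the median was 0 per region in each class. GATAAG occurred a median of 3.31 times per 10 kb in shared, 3.79 in WT-only and 2.37 in KO-only regions (quartiles 1.7 and 3.72), beside 3.85 over chromosome 2. TGANTCA occurred 3.54, 3.46 and 2.78 times, beside 3.18, and TTCNNNGAA 4.36, 3.1 and 3.54 times, beside 3.92. The quartile ranges of the 3 classes overlapped for length, GC content and each of the 3 motifs.

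On other chromosomes, 14 WT Th2 regions were shared, each with 1 mG900KO Th2 region. Called regions were larger there, with a median of 131 kb in WT Th2 cells and 130 kb in mG900KO Th2 cells, and none held fewer than 501 NlaIII sites, beside 51 on chromosome 2. The study's methods give the caller separate size settings within and between chromosomes. Lengths on chromosome 2 and elsewhere are therefore not comparable, and the difference is no result about the contacts. WT Th2 cells had no region on chromosomes 7 and 16, where mG900KO Th2 cells had 7 and 5. With the same bait, the WT naive list had 6 and 8 regions on these chromosomes and the WT Th0 list 3 and 6. Chromosome 11 had the most WT Th2 regions (10, of which 3 were shared) and the X chromosome the most mG900KO Th2 regions (10, of which 1 was shared).

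The longest shared regions were at *Sfi1* and *Patz1* (chr11:3129057-3345396, 216 kb), *Rexo2* and *Rbm7* (chr9:48416165-48594686, 179 kb), *Rtn3* and *Atl3* (chr19:7436314-7599657, 163 kb), *Bcor*, a transcriptional corepressor gene (chrX:12039750-12201698, 162 kb), and *Gm21738* (chr14:19365010-19524179, 159 kb). The *Sfi1* locus was called in all 7 libraries and the *Gm21738* locus in 6, and a further shared locus (chr9:3003683-3120495) in all 7. Of the WT Th2 bases, 47.1% at *Gm21738*, 61.6% at the chromosome 9 locus and 35% at *Sfi1* are marked as repeats in the reference. The share over the other chromosomes is 36.7%. Only 68.6% of the *Gm21738* region is assembled. The part of repeats and assembly gaps in these calls was not tested. The *Rtn3* and *Bcor* regions were called in both Th2 libraries and in no other. A region without a protein-coding gene, 128833 bases from *Klf12*, had identical edges in both lists (chr14:100413513-100558857), and WT naive and Th0 cells had it too.

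The longest WT-only regions were at *Wnt6* and *Wnt10a*, genes of secreted signals (chr1:74620431-74845052, 225 kb), *Akap12* (chr10:4332563-4500323, 168 kb), *Xpo1*, the nuclear export receptor gene (chr11:23184267-23347457, 163 kb), *Snx3* and *Ostm1* (chr10:42427087-42587690, 161 kb) and *Cask* (chrX:13750537-13906325, 156 kb). The longest KO-only regions were at *Tnfaip8* (chr18:49911964-50110486, 199 kb), *Slc25a4*, a mitochondrial ADP/ATP carrier gene (chr8:46063343-46260865, 198 kb), *Porcn* (chrX:8184326-8376281, 192 kb), *Tnfrsf12a* and *Pkmyt1* (chr17:23672056-23847875, 176 kb) and *Tfap4* and *Coro7* (chr16:4559502-4729759, 170 kb). Of these 10 regions, the *Wnt6*, *Tnfaip8* and *Slc25a4* regions were on the WT Th0 list too, and the *Akap12* and *Tfap4* regions on lists of the mG900 bait.

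**Figure D5:**
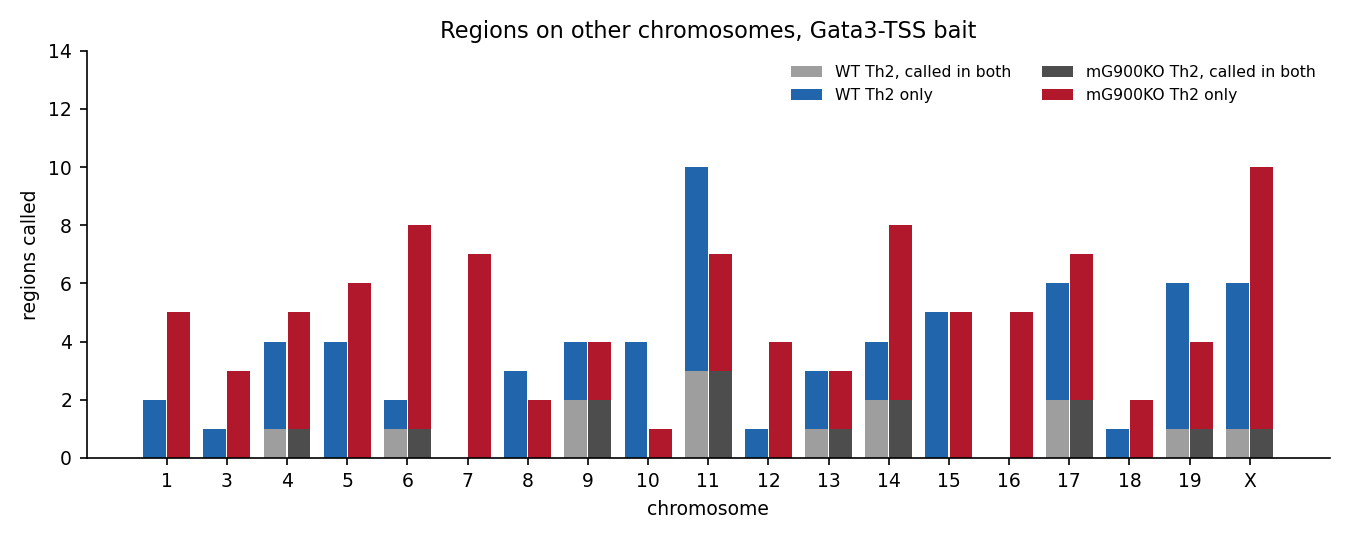
Number of regions per chromosome other than 2 and Y, for WT Th2 (left bar) and mG900KO Th2 cells (right bar), split into shared (grey), WT-only (blue) and KO-only (red). Shared regions make up 14 of 66 and 14 of 96, and chromosomes 7 and 16 have KO-only regions alone.

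Of 45 genes of T helper cell biology, 3 were touched by WT Th2 regions and 3 by mG900KO Th2 regions (6.67% each), beside 0.911% and 1.22% of all protein-coding genes on other chromosomes. The list was chosen with earlier results of these data known, so its excess over these shares is no result about the genes. *Gata3*, on chromosome 2, is among the 45 and was in no region of either Th2 list. It holds the bait of both lists, so its absence is no result about the gene. *Tcf7*, which encodes the T cell factor TCF-1, was in both (chr11:52194434-52347345 in WT Th2 cells and chr11:52240198-52404345 in mG900KO Th2 cells) and in WT naive cells. *Ikzf1*, the Ikaros gene, was in a WT-only region (chr11:11553052-11707837) that WT naive and WT Th0 cells also had. *Lef1*, a factor related to TCF-1, was in a KO-only region (chr3:131057188-131212135) that WT naive cells also had.

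The neighbouring costimulatory genes of chromosome 1 were split between the lists. *Ctla4*, the inhibitory receptor gene, was in a WT-only region (chr1:60871606-60969350, 97.7 kb), and *Cd28*, the activating receptor gene, in a KO-only region (chr1:60686453-60833931, 147 kb), with 37.7 kb between them. WT naive cells had calls over both genes and WT Th0 cells over neither.

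The Th2 cytokine genes *Il4*, *Il13* and *Il5* on chromosome 11 were in no region of the 7 lists, and the nearest regions were 1048 to 1155 kb away in WT Th2 cells and 1199 to 1316 kb in mG900KO Th2 cells. A list of 9 genes of chromatin loops (CTCF, cohesin and its loader, Mediator and the coactivator gene *Ep300*) had 0 in a region of either Th2 list, which at the shares of 0.911% and 1.22% over all protein-coding genes of other chromosomes is no result about the list. Of 37 immune genes of chromosome 2, WT Th2 regions touched 4 (10.8%, *Prkcq*, *Il2ra*, *Ifih1* and the transcriptional repressor gene *Zeb2*) and mG900KO Th2 regions 3 (8.11%, *Prkcq*, *Il2ra* and *Dpp4*), beside 2.39% of all protein-coding genes of the chromosome in both lists. The *Zeb2* region (chr2:45085107-45099357) was on the WT Th0 list too. The list of chromosome 2 immune genes was likewise chosen with earlier results of these data known, so its excess is no result about those genes.

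On other chromosomes, 45.5% of all WT Th2 regions and 51% of all mG900KO Th2 regions were called in at least 1 of the other 5 libraries. The counts were 12 of 14 (85.7%) for shared, 18 of 52 (34.6%) for WT-only and 37 of 82 (45.1%) for KO-only regions. Starts of protein-coding genes were denser than the 8.14 per Mb of these chromosomes in every class, at 16, 17.7 and 15.9 per Mb in shared, WT-only and KO-only regions. Further T cell genes were met in these regions and are named after their values were seen. *Cd3e*, a chain of the T cell receptor complex (chr9:45008571-45160803), and *Lck*, a kinase of T cell receptor signalling (chr4:129499905-129657989), were in KO-only regions. WT naive and Th0 cells both had the *Cd3e* region, and no other library had the *Lck* region.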

How the data were processed

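Mouse CD4+ T cells were profiled by 4C-seq, with 1 library per condition. The authors called significant interacting regions with w4Cseq and deposited their chromosome, start and end for each library (mm10 per the submitters' processing notes). The lists hold no read count, signal or score, so depth is unknown and no test was made. Wilson intervals of the shares served only as a yardstick for the alternatives. The second enzyme and the sequencer are given differently by the labels and the methods. Region edges were matched to NlaIII sites of GRCm38. Overlap, distance, genes (GENCODE M21), GC content and motif matches were computed with Python 3.11.15, numpy 2.4.6 and pandas 2.3.3, and the interval functions were checked on simulated lists. The members and gene lists were chosen with earlier results of these data known. Named regions outside the window were the 8 nearest and 5 longest of each class on chromosome 2, the 5 longest of each class elsewhere, regions with listed genes and loci called in all 4 *Gata3*-TSS libraries. Other regions named were chosen after their values were seen, and matched pairs, common edges and gene coverage were examined likewise. Alternatives changed the overlap rule (50% of the region), the tolerance or merging distance (10 kb on chromosome 2, 100 kb elsewhere), the region length, recurrent loci, the deleted interval and the limit of the window (1 or 2 Mb). Some regions that the rule names are not reported here.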

Additional observations from a re-analysis of the deposited data

How the results depend on the processing

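The shares of WT-only and KO-only regions were recomputed under each alternative and called unmoved where they stayed inside the 95% Wilson binomial interval of the reported share, a yardstick only, since regions are not independent draws. Of 56 such values, 54 stayed inside. Those that moved were the shares over all of chromosome 2 when regions under the median length of their list were left out, at 31.2% WT-only (44.4% as reported) and 37.8% KO-only (50.7% as reported). Outside the window that setting gave 53.3% and 61.9%. Some of the 56 values could not move, since leaving out the deleted interval removes no mG900KO Th2 region (37 of 73 KO-only both times). Intervals on few regions are wide, and a WT-only share under 10 Mb of 33.3% beside 17.6% as reported counted as unmoved. The count of unmoved values therefore says little of how stable the shares are. The split at 10 Mb was chosen after seeing the data. Under its alternatives, the WT-only share was 13.3% to 33.3% under 10 Mb and 77.8% to 83.3% beyond, and the KO-only share 37.5% to 50% and 80% to 88.9%. The lists hold called regions only, so a region missing from one may lie just under the caller's threshold, and at this unknown depth it cannot be called absent. No paired analysis was possible because each genotype has 1 library.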
